A study of Mus musculus with 7 samples.

Results

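The regions described here are the 300 windows of 10 kb with the most H3K27ac, away from gene starts, in mouse embryonic stem cells (ESCs). The mm9 autosomes were cut into 247243 non-overlapping windows, of which 218309 held no GENCODE M1 gene start. These were ranked by the sum of H3K27ac alignments (per 1000000 of the library) in the F123 and J1 ESC lines, and the top 300 were taken, so the windows were chosen by H3K27ac itself and their H3K27ac is a description. F123 cells are F1 hybrids that carry one Mus musculus castaneus (CAST) and one S129/SvJae (129) genome, and J1 is an ESC line of 129 background. The study deleted a distal Sox2 super-enhancer in F123 cells with a pair of CRISPR guides and sequenced polyA+ RNA of 4 genotypes, namely wild type (CAST+/129+), the monoallelic clones CAST+/129- and CAST-/129+, and the biallelic clone CAST-/129-. Each genotype was 1 clone and 1 RNA library, and H3K27ac in F123, H3K27ac in J1 and H3K4me3 in F123 were 1 library each, so no difference below could be tested across replicates. Transfected cells were recovered on puromycin-resistant mouse fibroblast feeders and passaged on gelatin without feeders before harvest. Where RNA values are listed for 4 libraries or 3 clones, they follow this order. Intervals printed beside a value are exact 95% intervals that cover counting error only.

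H3K27ac is an acetyl mark of nucleosomes at active enhancers and promoters, and H3K4me3 is a methyl mark that is concentrated at active promoters. Long stretches dense in H3K27ac are known as super-enhancers. In ESCs they lie near genes of the pluripotency network, such as Sox2, Klf4, Esrrb and Tbx3, which encode transcription factors that bind many of these elements.

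Depth differed between libraries. Distinct alignments numbered 1576875 for H3K27ac in F123, 7743500 for H3K27ac in J1 and 7108751 for H3K4me3, and the RNA libraries held between 5847451 alignments on genes in CAST-/129- and 24891864 in wild type. The 300 windows make up 0.121% of the autosomal genome and held 4.81% of the F123 H3K27ac alignments, 2.81% of those of J1 and 0.495% of the H3K4me3 alignments. Their level is given as fold over the mean autosomal window of the same library, which held 6.24 alignments for H3K27ac in F123, 30.7 for H3K27ac in J1 and 28.0 for H3K4me3.

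To show what these regions look like, 120-base stretches of the plus strand of mm9 are given for 8 windows. The windows searched were the highest-ranked window of each nearest expressed gene on a list of ESC regulators and both windows of the deleted region. Of these 15 windows, 13 held a match to 1 of 4 short motifs, and the 8 shown held 2 matches in 120 bases or a match within 2 kb of the window's highest 500-base bin of H3K27ac. Capitals mark the match. The motifs were TTGTNATGC (a Sox-Oct composite), ATGCAAAT (an octamer, which can share letters with the composite), TCAAGGTCA (an Esrrb element) and GGGTGTGGC (a Klf element), searched on both strands, so that GCATNACAA, ATTTGCAT, TGACCTTGA and GCCACACCC are the same motifs read from the other strand.
Esrrb rank 3 chr12:87842572-87842691: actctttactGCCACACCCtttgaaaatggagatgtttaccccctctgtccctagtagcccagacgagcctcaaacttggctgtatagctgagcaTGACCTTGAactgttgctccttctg
Sox2 rank 23 chr3:34659486-34659605: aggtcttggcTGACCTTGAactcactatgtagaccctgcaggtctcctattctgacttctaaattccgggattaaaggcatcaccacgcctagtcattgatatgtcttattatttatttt
Tcfcp2l1 rank 34 chr1:120548745-120548864: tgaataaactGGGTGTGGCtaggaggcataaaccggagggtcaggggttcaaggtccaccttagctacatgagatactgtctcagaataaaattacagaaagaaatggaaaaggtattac
Jarid2 rank 73 chr13:44801027-44801146: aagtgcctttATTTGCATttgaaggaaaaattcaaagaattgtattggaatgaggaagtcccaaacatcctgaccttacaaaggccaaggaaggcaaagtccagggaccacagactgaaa
Klf2 rank 133 chr8:74858491-74858610: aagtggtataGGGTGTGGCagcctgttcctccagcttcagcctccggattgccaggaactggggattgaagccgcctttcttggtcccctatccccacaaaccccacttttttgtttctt
Socs3 rank 163 chr11:117822020-117822139: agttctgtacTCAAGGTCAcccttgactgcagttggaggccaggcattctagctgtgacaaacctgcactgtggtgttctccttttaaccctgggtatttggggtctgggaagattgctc
Tet2 rank 256 chr3:133197441-133197560: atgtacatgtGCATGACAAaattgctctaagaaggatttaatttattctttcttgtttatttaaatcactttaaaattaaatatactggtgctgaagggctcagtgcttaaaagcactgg
Fgf4 rank 285 chr7:152053840-152053959: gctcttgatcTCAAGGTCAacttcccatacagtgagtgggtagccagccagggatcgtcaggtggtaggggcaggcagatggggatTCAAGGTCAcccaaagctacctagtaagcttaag

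The Esrrb, Tcfcp2l1 and Tet2 stretches lie in introns of the gene they are named for, and the other 5 lie between annotated genes. A match is a description of the letters in the window and not a measured binding site. Of the 300 windows, 42.0% held the Esrrb element, against 18.9% of all windows with no gene start, and 32.3% held the Klf element, against 11.9%. The composite was found in 21.0% against 24.1%, and the octamer in 39.3% against 58.3%. The windows were richer in G and C than the rest, with a median GC content of 48.2% against 41.0%. Among the 25355 windows with no gene start whose GC content lay between the quartiles of the 300, 28.2% held the Esrrb element, 23.5% the Klf element, 19.4% the composite and 37.8% the octamer. At like base composition the octamer and composite shares were thus close to those of the 300 windows, and the Esrrb and Klf shares were lower than in the 300. The next 700 windows by rank held the Esrrb element in 39.6% and the Klf element in 25.3%, so the former share was much like that of the 300.

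H3K27ac in the windows ran from 16.8- to 144-fold the mean in F123 (median 36.8-fold) and from 2.54- to 51.2-fold in J1 (median 22.6-fold). The next 700 windows by rank had medians of 18.4- and 12.6-fold, and all windows with no gene start 0.481- and 0.554-fold. The last window inside the limit, at chr17:29290001-29300000 near Cdkn1a, summed to 175.6 alignments per 1000000, added over both libraries, and the first outside, at chr2:59460001-59470000, to 175.5. By the same alignments that ranked the windows, a median of 9 of the 1 kb bins stood at 5-fold or more in either line. At least 5 such bins were found in 291 windows in F123 and 292 in J1. In the next 700 windows the medians were 7 bins in F123 and 6 in J1. A high sum over a window by itself puts many bins past 5-fold, so these counts describe the choice of the windows. In 10 windows a single bin held over 50% of the F123 alignments, up to 83.6% at rank 260. F123 was higher relative to its own mean than J1, with a median ratio of the folds of 1.70 (quartiles 1.34 and 2.11). Both values took part in the choice of the windows. The J1 library held 81285265 reads behind 7743500 distinct alignments and the F123 library 8047321 behind 1576875. The effect of collapsing reads on this ratio was not tested.

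**Figure D1:**
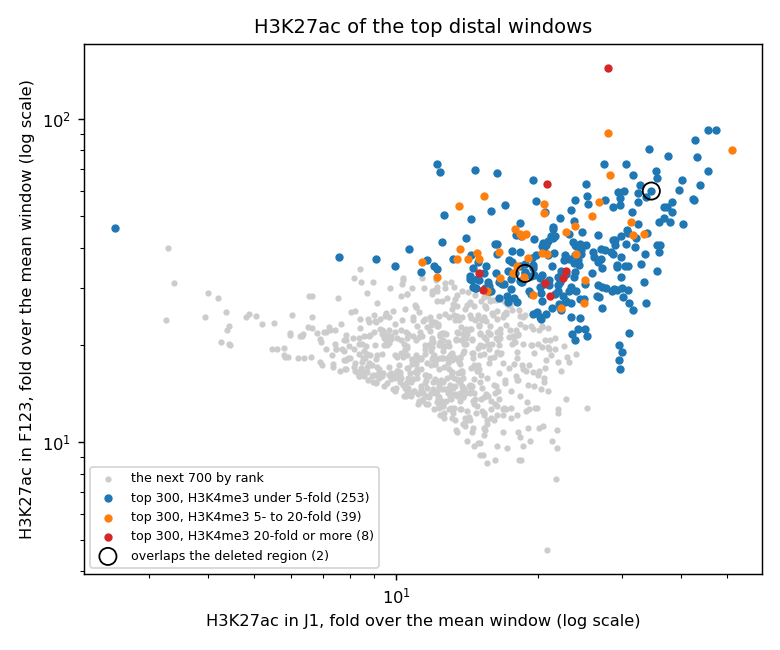
H3K27ac in J1 (horizontal) and in F123 (vertical) of each of the top 300 windows and of the next 700 by rank (grey), both as fold over the mean window on log axes. Colours give the H3K4me3 class, and circles mark the 2 windows of the deleted region. The lower left edge of the coloured points is set by the choice of the windows, and a single window at 2.54-fold in J1 and 46.0-fold in F123 stands to the left.

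Rank 1 belonged to a window that stood apart. It lies at chr15:74910001-74920000, between genes, and held 144-fold H3K27ac in F123 (interval 134.6 to 153.6), 28.1-fold in J1 and 33.7-fold H3K4me3. In this window 55.6% of the F123 H3K27ac alignments fell in 1 bin of 1 kb, and 43.0% of its 32-base words occur more than once in the chromosomes, against a median of 6.15% over the 300. It is 1 of 8 windows with H3K4me3 of at least 20-fold. The other 7 lie at the start of the assembled sequence of chromosomes 4, 11 and 18, 5 of them within chr11:3000001-3090000 around Sfi1 and Pisd-ps1, and their H3K4me3 ran from 24.6- to 49.4-fold. No input library or list of excluded regions was used here, so the signal of these 8 windows was not set against a background, and the part of repeated sequence in it was not tested. Leaving them out kept the shares below on genes, and the share of windows at 5-fold H3K4me3 and the median of that mark, within their intervals over genes or windows, which are not replicates.

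Ranks 2 and 3 lay near Sik1, a salt-inducible kinase, and inside Esrrb, an orphan nuclear receptor of the pluripotency network. The Sik1 window (chr17:31940001-31950000), 47.7 kb from the gene start, held 92.3-fold H3K27ac in F123 and 47.6-fold in J1, with 2.35-fold H3K4me3. The Esrrb window (chr12:87840001-87850000) held 92.4- and 45.6-fold, with 2.57-fold H3K4me3, and closed a run of 4 neighbouring top windows, the longest run found. At the other end of this run, the window at 87810001 held 10.1-fold H3K4me3 and an annotated transcript start. Rank 4 lay 12.6 kb from the start of Itgb7, an integrin beta subunit, and had the highest level in J1, 51.2-fold, with 80.4-fold in F123.

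Ranks 5 to 10 had as nearest expressed genes Kazn, Stoml1, Zbtb7a (a BTB zinc finger repressor), Wasf2 (a regulator of actin assembly), Pcyox1l and Cenpv. Their H3K27ac ran from 69.2- to 90.7-fold in F123 and from 28.1- to 45.8-fold in J1. The Zbtb7a window, 7.04 kb from the gene start, held 13.3-fold H3K4me3, and the other 5 held 2.18- to 3.57-fold. Rank 12 (chr7:3200001-3210000) lay 13.6 kb from Mir290, the first microRNA of a cluster known for its level in ESCs. MicroRNA genes have too few bases to be counted here, so its nearest expressed gene by the rule was AU018091, 35.8 kb away.

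A few windows were high in F123 and far less so in J1. The ratio was 18.1 at rank 247 (chr5:114410001-114420000) near Ssh1, a cofilin phosphatase, where F123 held 46.0-fold and J1 2.54-fold. It was 5.95 at rank 38 near the clock gene Arntl (72.7- and 12.2-fold) and 5.54 at rank 50 near Lemd2. In the other direction the ratio was 0.564 at rank 271 near Tgif1, a homeobox repressor of TGF-beta responses (16.8- and 29.8-fold). These windows were singled out after their values were seen, and the line, the culture and the library cannot be told apart with 1 library per line.

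Of the 300 windows, 184 (61.3%) overlapped a gene body, against 41.6% of all windows with no gene start, and 116 lay outside gene bodies. The share was 64.4% in the next 700 and 59.2% in the windows of like GC content, so it was not particular to the 300. An annotated transcript start that is not the gene start lay in 64 of the 300 windows (21.3%, against 4.81%, with 19.3% in the next 700 and 10.2% in windows of like GC content), so the label distal holds for gene starts but not for every transcript start. The median distance from the window centre to the nearest start of an expressed gene was 23.3 kb (quartiles 11.4 and 44.3 kb, range 5.08 to 487 kb), against 158.0 kb over all windows with no gene start. Within 50 kb of such a start lay 232 windows, and 31 were over 100 kb away. Neighbouring windows formed 24 runs of 2, 10 runs of 3 and the run of 4 at Esrrb, and 218 windows stood alone. Chromosome 11 held 44 of the windows (4.47 for each 1000 of its windows with no gene start), and chromosome 19 held 2 (0.375 for each 1000).

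H3K4me3 in the 300 windows was under 5-fold in most and higher in a minority. The median was 2.497-fold (range 1.07 to 49.4), against 1.89-fold over the next 700 by rank, 0.749-fold over all windows with no gene start, 1.18-fold over those of like GC content and 1.32-fold over the 28934 windows with a gene start. At 5-fold or more stood 47 windows (15.7%), against 0.168% of all windows with no gene start and 0.544% of those of like GC content. Most of the 10 windows with over 50% of F123 H3K27ac in 1 bin were among the 47. Besides ranks 1, 45 and 288, these were ranks 69, 89, 175, 190, 253 and 260, with 5.81- to 15.1-fold H3K4me3, while rank 237 held 4.50-fold. In ranks 69, 175 and 253, 31.7%, 31.4% and 65.0% of the 32-base words were repeated. The part of such signal in the 47 was not tested. The share was 8.57% over the next 700 and 14.9% over the windows with a gene start. The windows with a gene start hold the start of any annotated gene, expressed or not, so they are no standard for active promoters. The likeness to them was found near 5-fold and not at the other thresholds, since 70.7% against 37.7% stood at 2-fold or more, 35.0% against 28.3% at 3-fold or more and 6.33% against 1.65% at 10-fold or more. Without the 8 windows at 20-fold or more, the last share was 3.77%.

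**Figure D2:**
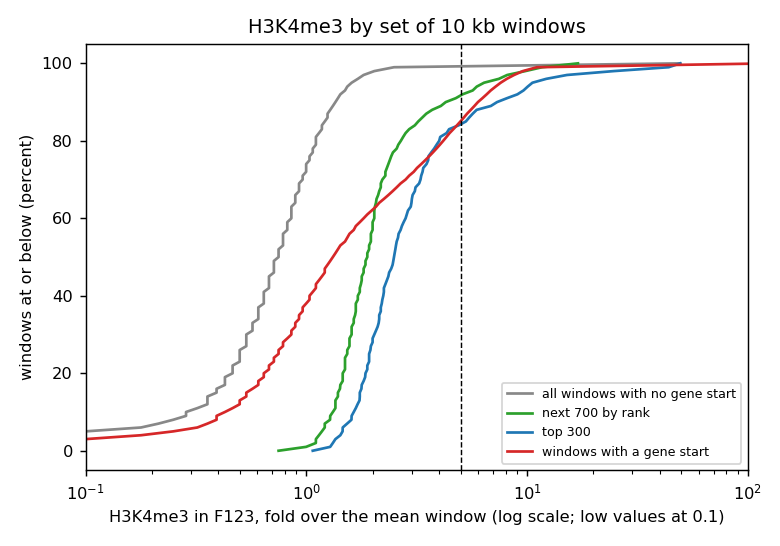
Cumulative share of 10 kb windows (vertical, percent) at or below each level of H3K4me3 in F123 (horizontal, fold over the mean window, log axis) for 4 sets of windows, with a dashed line at 5-fold. The curve of the top 300 lies to the right of those of the next 700 and of all windows with no gene start, and it meets that of the windows with a gene start near 5-fold.

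The 47 H3K4me3-rich windows often held a transcript start. An annotated transcript start lay inside 26 of the 47 and 38 of the 253. With a margin of 2.5 kb on each side the counts were 31 of 47 and 73 of 253. Their median ratio of observed to random CpG was 0.330, against 0.220 in the other 253. Their median H3K27ac was 38.6-fold against 36.2-fold in F123 and 20.3-fold against 23.2-fold in J1, values that the choice of the windows holds close together. Windows of this class whose nearest expressed gene was Esrrb, Socs3, Zbtb7a or Tgif1 held 10.1-, 11.99-, 13.3- and 5.32-fold, and those of Ubtf and Nrf1 17.9- and 12.8-fold. Where any transcript start left a window out, 24 of 300 windows (8%) stood at 5-fold or more.

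Both windows of the deleted region were among the 300. The deleted region, taken from the guide sequences, spans chr3:34652343-34665304, outside the gene bodies of GENCODE M1, and covers 7658 bases of the window at 34650001 (rank 23) and 5304 bases of the window at 34660001 (rank 206). The former held 59.9-fold H3K27ac in F123, 34.7-fold in J1 and 2.25-fold H3K4me3, and the latter 33.3-, 18.7- and 1.68-fold. Sox2, the high-mobility-group factor at the core of the pluripotency network, was the nearest expressed gene of both, 106 and 116 kb away. The study's text places the 5′ end of Peril, a noncoding RNA that has no gene body in this annotation, within the deleted region, so RNA here is outside annotated genes only. The study also states, without showing data, that deleted alleles lost this transcript. RNA alignments in the deleted part of rank 206 numbered 167, 113, 23 and 8 in the 4 libraries, which differ in depth, or 6.71, 9.05, 3.78 and 1.37 alignments per 1000000 on genes (CPM). In the deleted part of rank 23 they numbered 49, 29, 15 and 8, or 1.97, 2.32, 2.47 and 1.37 CPM. The clone labelled as lacking both copies thus still held 8 alignments in each part, at 20.4% of wild type in the former (interval 8.66 to 41.1%) and 69.5% in the latter (28.4 to 148.0%). The median window outside gene bodies held 0.513 CPM in this library, over 10 kb and so over more bases than either part. The source of these alignments was not tested, and the study genotyped its clones from DNA by copy number and junction sequencing. For rank 23 the interval of that clone and those of CAST+/129- and CAST-/129+ (71.9 to 190.5% and 65.3 to 227%) all include 100%. Beyond the deletion, in the remaining 4696 bases of the rank 206 window, alignments numbered 230, 127, 6 and 1. Over the whole of the rank 206 window, RNA stood at 15.9, 19.2, 4.77 and 1.54 CPM. CAST+/129- was thus at 121% of wild type (interval 102 to 142%), CAST-/129+ at 29.9% (19.8 to 43.6%), and CAST-/129- at 9.65% (4.38 to 18.5%).

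RNA was found in most of the top windows that overlap no gene body. Of these 116 windows, 110 (94.8%) held at least 1 CPM in wild type, against 25.8% of all such windows, 41.2% of those of like GC content and 89.6% of those among the next 700. The median was 4.96, 5.25, 4.52 and 2.57 CPM in the 4 libraries, and over all windows outside gene bodies it was 0.402, 0.641, 1.15 and 0.513. Among the 108 with a mean of at least 1 CPM and outside the deleted region, RNA lower at least 3-fold after 1 was added to both values was counted in 1 window in CAST+/129- (0.926%, against 2.75% of all such windows), in 3 in CAST-/129+ (2.78% against 2.61%) and in 15 in CAST-/129- (13.9% against 6.33%). The next 700 by rank gave 13.3% in CAST-/129-, near the share of the top 300. The median log2 ratio in CAST-/129- was -0.58 over the 108 windows, -0.59 over the next 700 and -0.30 over all such windows. The shares of lower windows in the monoallelic clones were near or below the background. Higher by the same rule were 4 windows in CAST+/129- (3.7% against 0.267% of all such windows), 4 in CAST-/129+ (3.7% against 2.32%) and 1 in CAST-/129- (0.926% against 0.461%). These were 5 windows in all, those of rank 50 (Lemd2), 89 (Rpusd4) and 248 (Pisd-ps1) in both monoallelic clones, rank 187 (Gm16880) in CAST+/129- and rank 288 (Tmem68) in CAST-/129+, and they were named after their values were seen. The windows of ranks 89, 248 and 288 held 15.1-, 27.04- and 24.7-fold H3K4me3, and the latter pair lie at the starts of assembled chromosomes.

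Of the 15 windows lower in CAST-/129-, 5 had a nearest expressed gene that was itself lower at least 3-fold, as had 7 of the other 93. The Sik1 window of rank 2 held 3.90 CPM in wild type and 0.51 in CAST-/129-, or 13.2% (interval 2.67 to 39.6%). The Klf2 window of rank 133 fell from 5.70 to 0.68 CPM. The window with the largest drop, rank 147 near Ranbp17, held 17.2, 6.81, 4.28 and 0.51 CPM in the 4 libraries and was named after its values were seen. In the opposite direction, the only window higher in CAST-/129-, that of rank 89 (chr9:35110001-35120000), with 15.1-fold H3K4me3 and 63.1% of its F123 H3K27ac in 1 bin, held 14.5 CPM in wild type and 414, 652 and 278 in the clones.

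**Figure D3:**
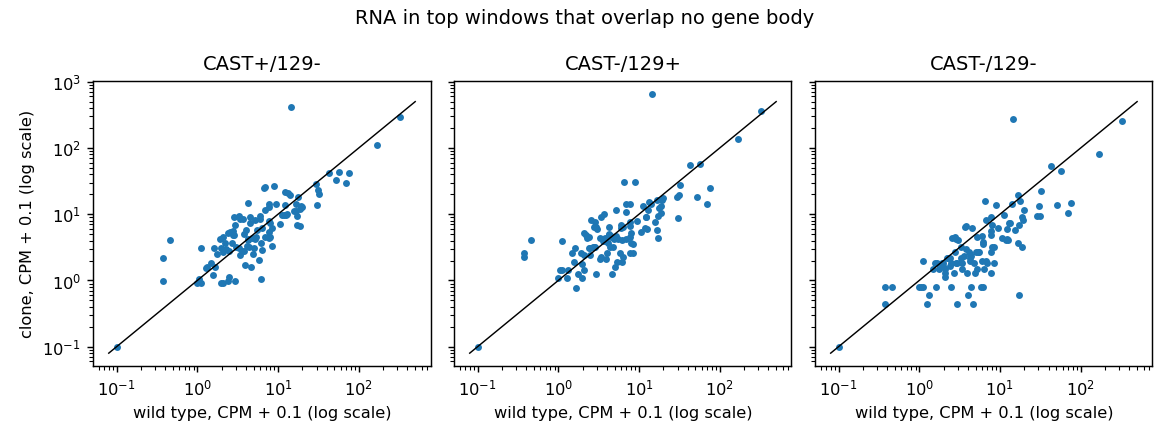
RNA in the top windows that overlap no gene body and lie outside the deleted region, as alignments per 1000000 on genes plus 0.1, in wild type (horizontal) and in each clone (vertical), on log axes with a line of equality. Points in CAST-/129- lie mostly under the line, and the topmost point in each panel near 14.5 in wild type is the window of rank 89. A few points at low wild-type values, such as that of rank 50, also lie well above the line in the monoallelic clones.

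The nearest expressed genes were 232 genes, 215 of them protein-coding, with a mean of at least 1 FPKM (alignments per kilobase of exonic bases and per 1000000 alignments on genes) over the 4 RNA libraries. Their median level in wild type was 24.6 FPKM (quartiles 11.6 and 53.4), against 11.1 FPKM over all 13826 expressed genes. A single window was nearest to 181 of them, 2 windows to 37 and 3 or more to 14. The genes with 4 windows were Esrrb, Tgif1 and BC032203. A window was assigned by distance alone, and which gene it acts on was not measured.

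The nearest expressed genes were lower in the deletion clones in a larger share than all expressed genes, and none was higher past the threshold. H3K27ac was measured in F123 and J1 and in no deletion clone, while genes count as expressed by their mean over all 4 RNA libraries. Genes with RNA mainly in the clones, such as Krt7 (0.017 FPKM in wild type and 9.54 in CAST-/129-), are thus among all expressed genes. The part of this choice in both differences was not tested. The study's own rule was used, a ratio of at least 3-fold after 4 is added to both FPKM values. In CAST+/129-, 10 of 232 were lower (4.31%) and 0 higher, against 0.694% lower and 0.731% higher among all expressed genes. In CAST-/129+, again 10 were lower and 0 higher, against 0.752% and 1.08%. In CAST-/129-, 19 were lower (8.19%) and 0 higher, against 1.16% and 1.87%. That count rested on the scaling and the value added, as did the share of all expressed genes. It was 11 (4.74%, against 0.8055% of all expressed genes) with all alignments as library size. With 10 added to the FPKM it was 8 (3.45% against 0.362%), and with 1 added 31 (13.4% against 3.87%). With 1 added, 17 and 21 of the 232 were lower in CAST+/129- and CAST-/129+, against 2.40% and 2.73% of all expressed genes. With 10 added the counts were 5 and 7 of the 232, against 0.174% and 0.231%. The median log2 ratio was -0.26, -0.41 and -0.49 in the 3 clones, against -0.03, -0.06 and -0.08 over all expressed genes. With no filter on low values the medians were -0.15, -0.22 and -0.28. Below wild type in any degree were 163, 179 and 190 of the 232 (70.3%, 77.2% and 81.9%), against 53.5%, 56.0% and 56.6%. All 3 comparisons share the wild-type library, so they are not independent of one another.

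**Figure D4:**
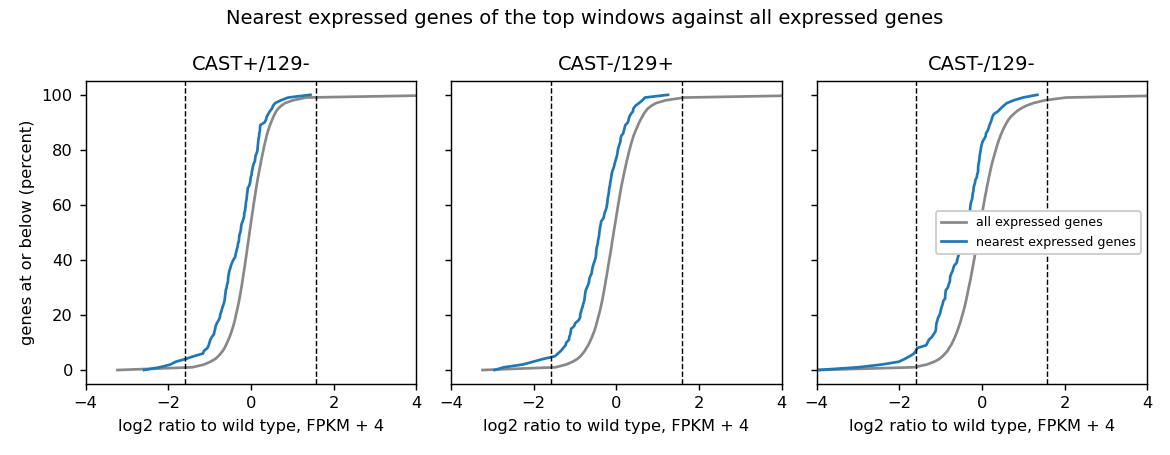
Cumulative share of genes (vertical, percent) at or below each log2 ratio of the clone to wild type (horizontal, 4 added to the FPKM), for the 232 nearest expressed genes and for all expressed genes, with dashed lines at 3-fold in either direction. The blue curve lies to the left of the grey one in each of the 3 clones and reaches 100% before the upper line.

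The same was seen at higher expression. Among all genes with a mean of at least 10 FPKM, 1.43% were lower in CAST-/129- and 2.41% higher, and of the 163 nearest expressed genes at that level 16 (9.82%) were lower and 0 higher. The share of lower genes was smaller at lower ranks of windows. Among 494 genes nearest to the next 700 windows and to no top window, 23 were lower and 2 higher in CAST-/129-, with a median log2 ratio of -0.33. Among 1141 further genes nearest to the windows after those, down to rank 3000, 23 were lower and 13 higher, with a median of -0.18. Over all 13826 expressed genes, 161 (1.16%) were lower and 258 (1.87%) higher in CAST-/129-, with a median of -0.08. The same values are the background of each split below. Within the 300, 9 of 90 genes were lower where the best window was among the first 100 and 10 of 142 among the rest, while the medians ran the other way, at -0.31 and -0.52. By distance, the median log2 ratio in CAST-/129- was -0.44 for the 60 genes with a window under 10 kb from the start, -0.52 for 63 genes at 10 to 20 kb, -0.51 for 64 at 20 to 50 kb and -0.33 for 45 farther away. Genes with 2 windows numbered 37, of which 7 were lower in CAST-/129-, 11 of the 181 with a single window were lower, and so was 1 of the 14 with 3 or more.

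Sox2 had the largest drop in CAST-/129-, though not in the monoallelic clones. It held 174.7, 82.0, 73.1 and 7.40 FPKM in the 4 libraries. The 2 monoallelic clones were thus at 46.9% and 41.8% of wild type, short of the threshold, and the biallelic clone at 4.23% (interval 3.46 to 5.13%). Its 2 windows are those that the deletion removes in part, and no other top window overlaps the deleted region.

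Several of the 19 encode transcription factors known from the pluripotency network. Klf4, a zinc-finger factor, held 120.5 FPKM in wild type and 19.3, 13.9 and 8.29 in the clones. Its only top window, rank 104, lay 50.3 kb from the start and held 3.78, 1.60, 1.97 and 1.20 CPM of RNA in the same order. Tbx3, a T-box factor with 2 windows, held 101.1 FPKM in wild type and 18.6, 10.4 and 10.4 in the clones. The CP2-family factor Tfcp2l1, listed in this annotation as Tcfcp2l1, held 86.7 FPKM and then 20.6, 13.8 and 13.3. For these 3 genes each clone was past the threshold and none of the intervals of the clones reached wild type. Esrrb, with its 4 windows, went from 89.9 to 51.3, 31.4 and 21.3 FPKM and passed the threshold in CAST-/129- alone, where it stood at 23.7% of wild type (interval 22.0 to 25.5%).

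Other lower genes act in chromatin and in signalling. Tet2, which oxidises 5-methylcytosine, held 53.3 FPKM in wild type and 22.1, 9.27 and 8.50 in the clones, and Tet1, of the same family, 108.9, 60.0, 45.4 and 34.9. The log2 ratio of Tet1 in CAST-/129- was -1.54, just inside the threshold. Socs3, a feedback inhibitor of JAK-STAT3 signalling that the cytokine LIF induces in ESCs, held 47.0 FPKM and then 22.1, 16.4 and 9.85. The zinc-finger factor Sall1 held 75.8, 39.1, 24.1 and 21.1 FPKM, and the histone acetyltransferase gene Myst4 (Kat6b) 54.4, 28.2, 20.6 and 14.6. Mras, a Ras-family GTPase, held 25.6 FPKM in wild type and 3.16, 2.40 and 5.56 in the clones, so that it was lower in the monoallelic clones than in the biallelic one.

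The other 9 of the 19 have no shared role known here. Gm7325 held 84.5 FPKM in wild type and 15.6, 11.01 and 6.72 in the clones, and Fam25c, whose window ranked 16, held 109.0, 68.5, 47.3 and 16.4. 6430527G18Rik, with windows from rank 19, held 60.9, 21.7, 12.1 and 14.2 FPKM. Pgc, which encodes the stomach protease precursor progastricsin, held 12.9 FPKM and then 0.81, 0.48 and 0.74. The steroidogenic enzyme gene Cyp11a1 held 10.9 FPKM in wild type and 2.22, 3.35 and 0.77 in the clones. Pipox stood at 15.3% of wild type in CAST-/129-. Abcc4, Cdyl2 and Rpl12-ps1 had log2 ratios of -1.60, -1.59 and -1.59 there, just past the threshold, and Rpl12-ps1 is uncertain because a ribosomal protein copy can share reads with its relatives.

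**Figure D5:**
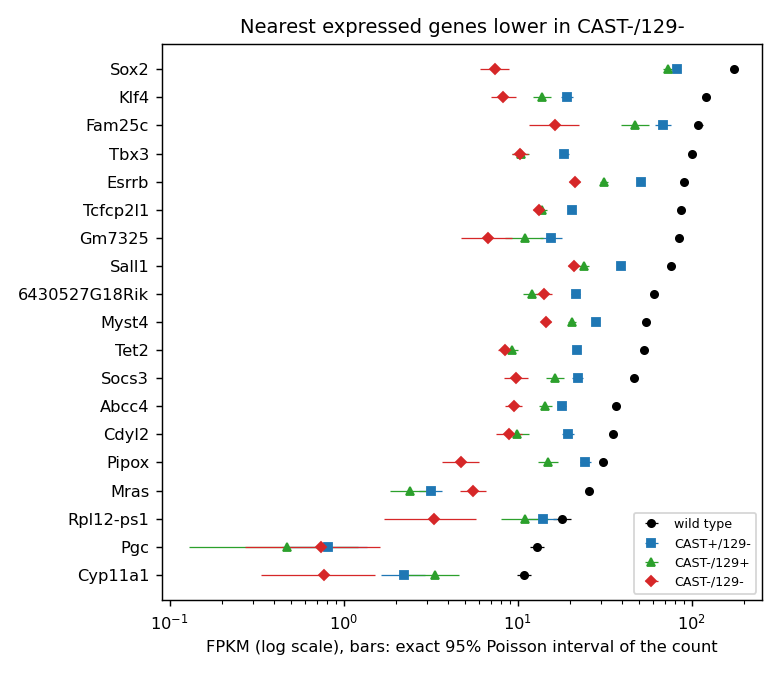
FPKM on a log axis (horizontal) of the 19 nearest expressed genes lower at least 3-fold in CAST-/129- (vertical, ordered by wild type), with 1 point for each library and the exact 95% Poisson interval of its count as a bar. Wild type (black) is the highest point of each gene, and the biallelic clone (red) is lowest in 16 of the 19, the exceptions being 6430527G18Rik, Mras and Pgc.

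Each monoallelic clone had 10 lower genes. In CAST+/129- the lower genes were Tcfcp2l1, Mras, Gm7325, Klf4, Tbx3, Pgc, Inhbb, Zfhx2, Gli2 and Pitpnc1, and in CAST-/129+ they were Tcfcp2l1, Mras, Gm7325, Klf4, Tbx3, Pgc, Inhbb, Zfhx2, Tet2 and 6430527G18Rik. Inhbb, Zfhx2, Gli2 and Pitpnc1 did not pass it in CAST-/129-. Inhbb, the activin beta-B subunit, held 31.3, 1.89, 0.58 and 12.7 FPKM in the 4 libraries. The homeobox gene Zfhx2 held 18.8 FPKM in wild type and 2.25, 2.27 and 5.13 in the clones. Gli2, a Hedgehog effector, and Pitpnc1, a lipid transfer protein, were likewise lower in CAST+/129- (3.32 and 4.63 FPKM) than in CAST-/129- (8.79 and 8.84). For these 4 genes both monoallelic clones lay below the biallelic one.

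The list of ESC regulators held 47 names, of which 46 were measured and expressed. Of these, 14 (30.4%) were the nearest expressed gene of a top window, against 1.77% of expressed autosomal genes. Among the 14, 3 were lower in CAST+/129-, 4 in CAST-/129+ and 7 in CAST-/129- (Sox2, Klf4, Tbx3, Tcfcp2l1, Tet2, Esrrb and Socs3), and 0 were higher in any clone. Among the 32 that no top window had as nearest gene, 1, 2 and 8 were lower and 1, 3 and 1 higher. The median log2 ratio of the 14 in CAST-/129- was -1.71, that of the 32 was -0.32, and that of all 232 nearest expressed genes was -0.49.

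The 7 regulators that did not pass in CAST-/129- split by direction. Tet1, the BMP target Id1 (69.1 FPKM in wild type and 30.9 in CAST-/129-), the ligand gene Fgf4 (53.8 and 22.5), Klf2 (52.4 and 26.6) and the Polycomb cofactor gene Jarid2 (66.8 and 37.8) had log2 ratios between -1.54 and -0.76. Etv5, an ETS factor of the FGF pathway, held 62.7 FPKM in wild type and 63.6, 57.5 and 46.2 in the clones. Nodal, a TGF-beta ligand, went the other way, with 19.7 FPKM in wild type and 24.4, 31.8 and 45.3 in the clones, or 230% of wild type in CAST-/129- (interval 207 to 255.6%).

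Higher values among the nearest genes stayed under the threshold. The highest log2 ratio in CAST-/129- was 1.34, for Cdkn1a, the gene of the cyclin-dependent kinase inhibitor p21, which held 49.1 FPKM in wild type and 49.4, 51.5 and 130.5 in the clones and was nearest to the window of rank 300. Ly6c1, nearest to rank 1, held 3.31, 3.15, 1.38 and 12.5 FPKM. Gadd45b, a stress-response gene, was highest in CAST+/129- with 45.1 FPKM against 14.1 in wild type.

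Of the nearest expressed genes of the 20 highest windows, 3 passed the threshold in CAST-/129-, and these were Esrrb, Fam25c and 6430527G18Rik. Sik1 (rank 2) held 68.7 FPKM in wild type and 46.3, 24.7 and 25.2 in the clones, and Itgb7 (rank 4) 8.14, 4.13, 2.89 and 2.56. Tmem51 (rank 13) held 15.8 FPKM and 9.42, 8.54 and 4.39. On the other side, Wasf2 with 3 windows held 40.6 FPKM in wild type and 47.2, 41.8 and 40.9 in the clones, and Stoml1 10.5, 12.3, 11.05 and 9.84. Epha2, an ephrin receptor, held 27.9, 25.7, 18.96 and 49.3 FPKM. The log2 ratios in CAST-/129- of the other 11 genes, Kazn, Zbtb7a, Pcyox1l, Cenpv, Csnk1a1, AU018091, Bak1, Zfp532, C77080, Fam134b and Ly6c1, lay between -0.77 and 1.17. Of the genes with 4 windows besides Esrrb, BC032203 held 15.8 FPKM in wild type and 5.16 in CAST-/129-, and Tgif1 34.4 and 23.2.

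Markers of other cell types moved with the genotypes. The summed level of 12 fibroblast genes, which feeder cells would also express, was 29.8 FPKM in wild type and 267, 288 and 953 in the clones, with Lum at 0 in wild type. Past the threshold 6, 5 and 11 of the 12 were higher, against 0.731%, 1.08% and 1.87% of all expressed genes. Acta2, Col1a1, Tagln and S100a4 held 73.7, 39.0, 70.0 and 32.7 FPKM of the sum in CAST+/129- and 180.8, 174.4, 164.0 and 146.7 in CAST-/129-. Thy1 held 11.4 FPKM in wild type and 5.69, 6.28 and 27.7 in the clones. The sum of 8 trophectoderm genes was 25.7 FPKM in wild type and 356, 582 and 558 in the clones, and that of 10 ESC markers 1823, 1584, 1488 and 1095. Of the 8 trophectoderm genes, 4 were higher past the threshold in each clone. Krt8 and Krt18 held 278.9 and 231.4 FPKM of the sum there, and Cdx2, Gata3 and Elf5 held 1.59, 1.36 and 0.117. The sum of 5 primitive endoderm genes was 74.7 FPKM and then 8.75, 38.5 and 25.9, that of 6 mesoderm and streak genes 4.96, 23.5, 67.8 and 92.8, and that of the 3 neural genes measured 1.88, 14.6, 10.6 and 19.98. Among the endoderm genes Gata6 went from 42.9 FPKM in wild type to 4.51 in CAST-/129-, while Foxa2 went from 1.36 to 11.4. The neural sum was almost all Nes, with 19.9 FPKM in CAST-/129-. None of the genes of the 5 lists other than the ESC markers was a nearest expressed gene of a top window. Per the methods, cells were passaged on feeder-free plates before harvest. In CAST-/129-, 5 of the 10 ESC markers were lower past the threshold and 0 higher, against 1.16% and 1.87% of all expressed genes. In each monoallelic clone 1 of the 10 was lower and 0 higher. Dppa5a held 461 FPKM in wild type and 480 in that clone, and Pou5f1 188 and 163. In bulk RNA, fewer ESCs and less RNA per ESC were not told apart, and the part of other cells in the lower levels was not tested.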

How the data were processed

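The deposited files hold positions on mm9 with 1 line for each distinct alignment and a whole-number count of reads behind it, as read from the values. Per the labels and methods, the authors mapped ChIP-seq reads with Bowtie and RNA-seq reads with Novoalign. No input library was used here. For the H3K4me3 library the labels and the methods name different antibodies. Distinct alignments were counted in windows by their 5′ end, and fold is over the mean autosomal window of the same library. RNA alignments were counted on the sense strand by midpoint in exonic bases of 1 gene (at least 200 bases; GENCODE M1, NCBIM37) and given as FPKM, with library size the alignments on these genes, and in windows on both strands. Lists were matched by symbol and RefSeq synonym. The windows and the gene and marker lists were chosen with earlier results of these data known. Named were the 10 highest windows, those of the deleted region and at the limit, the nearest expressed genes of the 20 highest windows, those past 3-fold in CAST-/129-, those with 4 windows and those on the regulator list. With 1 library per condition there was no test. Calls and ranking were run on simulated data with large planted changes and counting error alone. Such data cannot show how calls near the threshold, ranks near the limit or differences between clones fare. Alleles were not told apart. Counting used numba 0.67.0, pandas 2.3.3 and numpy 2.4.6, with intervals from scipy 1.17.1.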

Additional observations from a re-analysis of the deposited data

How the results depend on the processing

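With 1 RNA library per genotype there was no replicate to leave out, and of the H3K27ac libraries each line was left out in turn. No paired analysis was possible because there are no replicates. Of 288 values recomputed under alternatives, 243 stayed within the interval of the reported value and, for shares, within 1.5 times. For a share this is the exact binomial interval over windows or genes, and for a median an interval from their order. Both take windows or genes as independent, which they need not be, and neither measures counting error or spread between clones. The share of nearest expressed genes that were lower exceeded that of all expressed genes in 78 of 78 values, and the median log2 ratio lay below that of all expressed genes in 72 of 72, so the alternatives changed sizes and no direction.

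The window set changed with its rule. Of the 300 windows, 284 remained when reads before collapsing were ranked, 263 with F123 alone and 226 with J1 alone. H3K4me3 of at least 5-fold was then found in 11% of windows with J1 alone, in 8% where any transcript start left a window out (50.3% of windows were then outside gene bodies), in 11.7% where a gene start within 2.5 kb of an edge did, and in 10.7% of the top 1000. Thresholds of 3- and 10-fold gave 35% and 6.33%. Of the medians, those of H3K4me3 and of distance moved under 4 and 3 alternatives, and the median log2 ratio of the nearest genes with no filter on low values (in all 3 clones) and, in CAST-/129-, with the top 100 (-0.31) and with 1 added (-0.56).

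The share of lower genes moved with the call. In CAST+/129-, CAST-/129+ and CAST-/129- it was 7.33%, 9.05% and 13.4% with 1 added to the FPKM, against 2.40%, 2.73% and 3.87% of all expressed genes. At 2-fold it was 10.3%, 17.2% and 21.1%, against 2.9%, 3.49% and 4.38%. At 5-fold it was 0.862%, 2.16% and 2.59%, against 0.101%, 0.116% and 0.21%. With 10 added it was 2.16% in CAST+/129- (against 0.174% of all expressed genes) and 3.45% in CAST-/129- (against 0.362%). With all alignments as library size it was 4.74% in CAST-/129- (against 0.8055%), that is 11 genes in place of 19. The share of higher genes was 0 in 64 of 78 values. It was 0.431% or 1 gene with J1 alone in CAST-/129-, with RNA reads before collapsing in CAST-/129-, with only protein-coding starts leaving windows out in both monoallelic clones, with 1 added in CAST+/129- and CAST-/129-, and at 2-fold in both monoallelic clones. It was 1.29% at 2-fold in CAST-/129-, 0.439% with protein-coding genes only in each clone, and 0.275% for the top 1000 in CAST-/129+ and CAST-/129-. Where only the windows changed, the share of all expressed genes stayed at 0.731%, 1.08% and 1.87% in the 3 clones. For 2-fold, a log2 ratio of 1, percentiles 95 and 96 of all expressed genes in CAST-/129- were 0.94 and 1.07. Percentiles 97 and 98 were 0.83 and 1.02 in CAST+/129- and 0.96 and 1.19 in CAST-/129+. The other backgrounds are not given here.

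Added after the data were seen were leaving out the 8 windows with H3K4me3 of at least 20-fold, the 47 at 5-fold or more, the 17 with over 20% repeated words, the deleted region with Sox2, and thinning the RNA libraries to 1 depth. None of these moved a recomputed share or median past its interval, and the H3K4me3 values were not recomputed without the 47. The 1576875 alignments of H3K27ac in F123 give the ranking its largest counting error.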
